A study of Mus musculus with 6 samples.

Results

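The probes described here carried a composite ETS and CRE site at their 5′ end, opposite the tail that all custom probes share, with its ETS part or its junction changed. They were chosen by sequence alone. Each was a custom probe of 60 bases that began at base 1 with the 16-base site in forward orientation, with 1 or 2 substitutions of which at least 1 lay at positions 1 to 9. The rule found 918 probes among 6889 custom sequences and 10812 sequences in all without controls. They comprised 27 single substitutions, 252 doubles within positions 1 to 8, 72 doubles of position 9 with positions 1 to 8, 504 doubles of positions 1 to 8 with positions 10 to 16, and 63 doubles of position 9 with positions 10 to 16.

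The study measured, on protein binding microarrays, how mouse GABPα and CREB1, as isolated DNA-binding domains, occupy double-stranded DNA of designed sequence. Each domain was made by translation in a cell-free reaction for 2 h at 37 °C and carried glutathione S-transferase (GST), the tag that is read by fluorescence. The groups were GABPα alone (570 ng of tagged plasmid), GABPα with CREB1 (the same plasmid plus 66 ng of an untagged CREB1 plasmid, so that only GABPα was read), and CREB1 alone (570 ng of tagged plasmid), with 2 arrays each. In all groups 230 µl of a 250 µl reaction was applied. The proteins were not full-length factors, and the amount of untagged CREB1 made in the mixed reaction was not measured here. Replicate 1 of GABPα alone and of GABPα with CREB1 lay on 1 slide and replicate 2 of both on another, whereas the CREB1 arrays lay on slides of their own. Whether the 2 arrays of any group used different preparations of protein is not stated in the labels, so the p-values measure only the spread between these arrays, which may be technical.

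ETS factors such as GABPα bind DNA through a winged helix-turn-helix domain that reads a GGAA core from the major groove, with weaker preferences in the bases on both sides. CREB1 binds as a dimer through a basic leucine zipper, and each monomer reads one side of the palindromic cAMP response element (CRE). In promoters with a composite ETS and CRE site, the last base of the ETS part is directly followed by, and may share a base with, the CRE.

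The unmutated site is printed first in the 3 placements used below, with the site in capitals, 5′ to 3′, to show that in the outer forward placement the ETS part starts at the end of the probe with no base before it.

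Unmutated, outer forward: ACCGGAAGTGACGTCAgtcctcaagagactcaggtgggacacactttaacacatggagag
Unmutated, middle forward: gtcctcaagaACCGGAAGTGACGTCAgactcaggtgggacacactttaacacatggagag
Unmutated, outer reverse: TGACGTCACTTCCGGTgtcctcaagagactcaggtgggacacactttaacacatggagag

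Positions are counted from 1 at the 5′ end of the site. The GGAA core spans positions 4 to 7, the CRE spans positions 9 to 16, and T9 is the junction base. A substitution is written as original base, position, new base. The members on which the results turn are printed as the 16-base site with the changed bases in capitals, and all end in the same bases as the first probe above. The first set holds singles at the end base, the core and its flanks, and the junction, whose GABPα signals are described below.

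A1G: Gccggaagtgacgtca
A1C: Cccggaagtgacgtca
A1T: Tccggaagtgacgtca
C2G: aGcggaagtgacgtca
C3A: acAggaagtgacgtca
A7T: accggaTgtgacgtca
G8A: accggaaAtgacgtca
G8C: accggaaCtgacgtca
G8T: accggaaTtgacgtca
T9A: accggaagAgacgtca
T9C: accggaagCgacgtca
T9G: accggaagGgacgtca

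The second set holds doubles that moved the GGAA core or added another GGAA, and doubles that kept the CRE a palindrome. It also holds doubles named below for their departure from the sum of their singles, or for their fall.

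C3G+G5A, GGAA from position 3: acGgAaagtgacgtca
A6G+G8A, GGAA from position 5: accggGaAtgacgtca
T9G+G10A, GGAA from position 8: accggaagGAacgtca
T9G+C12A, GGAA from position 9: accggaagGgaAgtca
T9A+A16T, palindrome kept: accggaagAgacgtcT
T9C+A16G, palindrome kept: accggaagCgacgtcG
T9G+A16C, palindrome kept: accggaagGgacgtcC
T9A+G10C, above additivity: accggaagACacgtca
T9A+A16C, below additivity: accggaagAgacgtcC
G8T+T14C, below additivity: accggaaTtgacgCca
A7C+G10C, above additivity: accggaCgtCacgtca

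Signals are given as log2 of the processed spot intensity, scaled on each array to the 75th percentile of spots whose sequences were above background on all 6 arrays and averaged over the 24 spots of a member. A sequence counted as above background on an array where over 0.5 of its spots passed the scanner software's test, which was set at 13 standard deviations. Of the custom sequences, 24.0% to 92.3% were above background on an array. Of the 918 members, 0 were above background on either array with GABPα alone, 16 and 18 with GABPα and CREB1, and 871 and 882 with CREB1 alone. With GABPα alone the scanner software had put a surrogate value in place of the measured one for 100% of the members' spots, so scaled values there show only that a member was dim. For dim members the authors' deposited table, which holds background-subtracted intensity without that replacement, is quoted in its own linear units. The members share a tail and an array and are not replicates of one another.

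The unmutated site set the level against which the members were read. With GABPα alone its signal was -4.41 and -4.72, below background on both arrays. With CREB1 present it was -0.63 and -0.74, and with CREB1 alone 1.13 and 0.75. In the authors' deposited table the same probe had 973 and 930.4 with GABPα alone, 3262 and 4195 with CREB1 present, and 48714 and 42806 with CREB1 alone. The GABPα signal at this placement was visible above background when CREB1 was present, and was dim on both arrays without it.

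With CREB1 present, GABPα was above background on both arrays at 15 members, and these carried one of only 2 ETS-side changes. A1G, a change of the outermost base, was in 8 of them, and G8A, which changes the last base before the CRE, was in 7. A1G alone gave -1.33 and -1.49, and G8A alone gave -1.44 and -1.42. Both arrays of these singles lay below both arrays of the unmutated site, and the values of A1G and G8A overlapped. Beside the 2 singles, the set held all 12 doubles of A1G or G8A with a change at position 15 or 16, the last bases of the CRE, and A1G+T14A. The dimmest of the 15 was A1G+T14A at -2.63 and -2.25. A further 4 members were above background on 1 array, namely A1G+C12T, G8A+T14A, A1C and A1G+T14C.

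Against the unmutated site on the same array, every member was lower with GABPα and CREB1. The fit called 918 of 918 lower (limma, Benjamini-Hochberg), beside 99% of all 6768 substitution effects tested in the 6 placements, so the count is no property of these members. A1G was lower by 1.65-fold (log2 -0.72, SE 0.108, adjusted p = 2.97e-05 by limma). G8A was lower by 1.67-fold (log2 -0.74, SE 0.110, adjusted p = 2.73e-05 by limma). The 15 members above background ranged from 1.65-fold to 3.37-fold lower. For the others the difference is only a bound, because they lay at background on at least 1 array. The fit on the authors' deposited table called 915 members, and A1G, G8A and A1G+C15G were not (adjusted p = 0.0887, 0.0764 and 0.0502 by limma).

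The next comparison asked which members gave a higher GABPα signal when untagged CREB1 was added. Of 918 members, 34 were called higher and 0 lower (limma, Benjamini-Hochberg over 10812 sequences), beside 6.75% higher and 3.53% lower of all sequences. Members that were above background only with CREB1 had to differ between the groups. All members had surrogate values with GABPα alone, so none of the 34 calls is counted as support. The SE values below partly measure the spread of those surrogates. A1G rose by at least 2.34-fold (fitted log2 3.27, SE 0.0881, adjusted p = 0.00362 by limma), with -4.64 and -4.72 before the addition and -1.33 and -1.49 after it. G8A rose by at least 2.31-fold (fitted log2 3.24, SE 0.0663, adjusted p = 0.00362 by limma), with -4.61 and -4.72 before and -1.44 and -1.42 after. The smallest such bound was 1.14-fold, for A1G+T14A. A bound sets the signal with CREB1 against the lowest signal above background on each array without it, since the members themselves could not be measured there. These bounds hold only under the scaling used.

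Each of the 34 called members carried a change at position 1 or G8A, and 33 kept the GGAA core, which describes the list and was not tested. The one that did not was A7T+G8A, which reads GGAT, a core that ETS domains also accept, usually more weakly. Of the 34, 18 were above background on at least 1 array with CREB1 and 16 were below it on both. The 16 included A1T (-3.37 and -3.33 with CREB1), 5 doubles of A1C with a change at 15 or 16, 4 such doubles of A1T, and A1G+G8A (-3.15 and -3.01). Their signals rested on fewer measured spots, with a median of 15.7% surrogate values with CREB1 against 0% for the 15. In a fit on scaled log2 values of the authors' deposited table, 0 of 918 passed after adjustment and 91 had an unadjusted p under 0.05 (limma). In the unscaled values of that table, 111 members were higher with CREB1 on both slides and 750 were lower on both. The count also fell to 0 without either array of GABPα alone, with 231 and 696 at an unadjusted p under 0.05, to 20 without replicate 2 of GABPα with CREB1, and to 22 with the slide as a block.

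The scaling moved all sequences together. The median change over all sequences was -0.18 with the scaling used, -1.04 with the percentile over all spots and -0.39 with no scaling. All 34 called members had a positive fitted change with no scaling too. With the percentile over all spots 29 of them did, and 5 turned negative: A7T+G8A (-0.07), A1G+G10T (-0.10), A1C+C15G (-0.19), A1T+C15T (-0.22) and A1T+A16C (-0.42). Under that percentile the split of calls was 21 higher and 868 lower in place of 34 and 0. With no scaling 18 members were called. The fitted changes of the 15 members ran from 2.25 to 3.27 with the scaling used. They ran from 2.04 to 3.06 with no scaling and from 1.39 to 2.42 with the percentile over all spots. The bounds given for the addition of CREB1 would fall by the same amounts. With no scaling, the smallest of the 15, for A1G+T14A, would no longer show a rise. With the percentile over all spots, bounds of 1.78-fold (G8A+A16G) or less would not show a rise. Those of 1.93-fold (G8A+C15A) or more would.

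Most members lay below the background test on the GABPα arrays, and the authors' deposited table was used to order them. As a baseline, 383 members with a change at positions 4 to 6 and none of the letters GGAA, GGAT or their reverse complements TTCC and ATCC in bases 1 to 20 were pooled. This baseline was chosen after the values were seen, and comparisons with it are descriptions. Its values ran from 134 to 300.3 and from 52.5 to 345 on the arrays with GABPα alone, and from 47.8 to 246 and from -39 to 180.0 with CREB1. Of 420 members that kept the core, 68 lay above the highest baseline value on both arrays with GABPα alone and 126 on both with CREB1, of which 60 did so in both groups. The baseline itself was lower in the mixed reaction, with a median of 139.5 and 56.5 against 219 and 197.

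At position 1 the identity of the base set the order. In the authors' deposited table A1G had 546 and 576.5 with GABPα alone and 2527 and 2962 with CREB1. A1C had 392.5 and 467.5 with GABPα alone and 1409 and 1607 with CREB1. A1T had 359.8 and 309.5 with GABPα alone and 1089 and 1229.5 with CREB1. With CREB1 the 3 substitutions did not overlap, in the order A1G, A1C, A1T, all below the unmutated probe.

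At positions 2 and 3, which precede the core directly, the members were dim in both groups, and the base again mattered. With CREB1 present, C2G had 679 and 562, C3A had 509 and 348.5, and C2A had 460.5 and 313 in the authors' deposited table, above the baseline on both arrays. C2T (274.5 and 128.5), C3G (238 and 148) and C3T (137.5 and 82) were not above it on both. With GABPα alone none of the 6 singles exceeded the baseline on both arrays. Of the 129 members whose first change was at position 2, 26 belonged to the baseline, and of the other 103, 0 lay above it with GABPα alone and 23 with CREB1. Of the 120 whose first change was at position 3, 94 lay outside the baseline group, and the counts were 0 and 9.

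Within the core, A7T and A7C were the singles above the baseline on both arrays with CREB1. A7T, which turns GGAA into GGAT, had 304 and 359.5 with GABPα alone and 959 and 988.5 with CREB1 in the authors' deposited table. A7C had 248 and 205 before the addition of CREB1 and 325 and 318 after it. A7G had 149 and 40.5 in the mixed reaction, within the baseline. Of 46 members with A7T, 9 belonged to the baseline, and of the other 37, 9 were above it with GABPα alone and 21 with CREB1. The singles at positions 4 to 6 formed part of the baseline, with values between 174.5 and 200.8 on the first array with CREB1.

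Position 8 also differed by base. In the authors' deposited table G8A had 496 and 500 with GABPα alone and 2441 and 2972 with CREB1. G8C had 301.5 and 314.5 with GABPα alone and 348 and 279.8 with CREB1. G8T had 220 and 268.5 with GABPα alone and 173.8 and 72 with CREB1, within the baseline. Each of these changes was in 46 members, of which 8 or 9 belonged to the baseline. Among the rest, G8A was above the baseline in 23 of 38 with GABPα alone and 31 with CREB1, G8C in 0 and 3 of 37, and G8T in 0 and 0 of 38.

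At the junction base, as with G8T, the values were lower with CREB1. T9C had 371.5 and 295.5 with GABPα alone and 345 and 199 with CREB1 in the authors' deposited table. T9A had 285.5 and 257.8 with GABPα alone and 163.8 and 108 in the mixed reaction. T9G had 217.8 and 169 before the addition and 172.8 and 16 after it. All 3 were lower with CREB1 on both slides, as were the baseline medians and 750 of the 918 members. Of the 22 members with T9C and no earlier change, 8 were above the baseline with GABPα alone and 2 with CREB1.

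None of the 4 members with a GGAA in a neighbouring frame exceeded the baseline on either array with CREB1, or on both arrays with GABPα alone. C3G+G5A (GGAA from position 3) had 173.5 and 49.3 with CREB1 in the authors' deposited table, and A6G+G8A (from position 5) had 196.5 and 47.5. T9G+G10A, which keeps the core at 4 to 7 and adds GGAA from position 8, had 154 and 49.8. T9G+C12A, which adds it from position 9, had 168.5 and 44 with CREB1, and 304.5 and 263.5 with GABPα alone, the first of which was above the highest baseline value on that array. Of the 4, C3G+G5A and A6G+G8A kept the CRE and their CREB1 signal differed from the unmutated site by -0.01 and -0.07 (adjusted p = 0.933 and 0.574 by limma). Of 6814 custom probes of 60 bases, 28.2% hold GGAA and 28.2% hold TTCC on the printed strand.

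Within an ETS-side background, the GABPα signal in the mixed reaction was set beside the signal of CREB1 alone at the same probe. Over the 21 doubles that joined A1G to a change at positions 10 to 16, the log2 values of the authors' deposited table with GABPα and CREB1 correlated with those with CREB1 alone at r = 0.70 (rho = 0.78). For G8A the values were r = 0.68 and rho = 0.71, for A1C 0.72 and 0.73, for A1T 0.72 and 0.73, and for A7T 0.78 and 0.81, each over 21 doubles. For G8C they were 0.75 and 0.85 and for G8T 0.48 and 0.59, although those doubles had little or no GABPα signal above the baseline. Negative values and those near 0 were raised to a small positive floor before the log2 was taken. On the second array with GABPα and CREB1, the G8T doubles reached down to -4.5 and the G8C doubles to 4.25. The points of each correlation share their arrays, tail and ETS part and are a description. A1G+A11C, the lowest of the A1G doubles with CREB1, had 516 and 408 with GABPα alone and 356 and 281.8 in the mixed reaction. A1G+G13T had 617 and 718 with GABPα alone, and 556 and 483.5 in the mixed reaction. A1G+C12T had 614.5 and 710.5 with GABPα alone and 1509 and 1557 with CREB1. A1G+G13T and A1G+C12T were the members not called lower than the unmutated probe with GABPα alone in that table (log2 -0.52 and -0.53, adjusted p = 0.115 and 0.0697 by limma), beside 916 of 918 called and 79.7% of all effects.

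CREB1 alone was above background at most members, and its signal differed from the unmutated site with changes at positions 8 to 16 but detectably at none of the single or double changes within positions 1 to 7. Against the unmutated site, 671 of 918 members were lower and 0 higher (limma, Benjamini-Hochberg), beside 78.7% lower and 0.207% higher of all 6768 effects. The 21 singles at positions 1 to 7 ranged from -0.16 to 0.06 on the log2 scale and 0 were called. Their 95% intervals reached from -0.40 to 0.29, so smaller differences could not be seen. The 189 doubles within positions 1 to 7 ranged from -0.21 to 0.13 and 0 were called.

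Position 8, the flank of the CRE, had a graded effect on CREB1. The unmutated site gave 1.13 and 0.75, G8A 0.99 and 0.70, G8C 0.85 and 0.42, and G8T 0.66 and 0.20. G8A differed by -0.09 (SE 0.110, adjusted p = 0.476 by limma, 95% interval -0.33 to 0.15). G8C fell by 0.30 (SE 0.108, adjusted p = 0.0202 by limma), and G8T fell by 0.51 (SE 0.112, adjusted p = 0.00105 by limma). All 3 were lower on both arrays than the unmutated site on the same array. The same order held when position 8 was changed together with positions 1 to 7: 1 of 21 doubles with G8A, 17 of 21 with G8C and 21 of 21 with G8T were lower. G8C was not called without either CREB1 array, nor were G8C and G8T in the authors' deposited table (log2 -0.24 and -0.56).

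Position 9 is the first base of the CRE, and each change there lowered CREB1. T9C gave 0.08 and -0.28, T9A -0.55 and -0.84, and T9G -0.82 and -1.21. The falls were 1.04 for T9C (adjusted p = 1.67e-06), 1.64 for T9A (adjusted p = 1.49e-08) and 1.95 for T9G (adjusted p = 2.64e-09), all on the log2 scale by limma with SE 0.110 to 0.111. Joining them to any change at positions 1 to 8 gave 72 of 72 doubles below the unmutated site, with a median of -1.60 where the GGAA core was changed and -1.61 where it was kept.

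Doubles that touched both parts spanned the full range of CREB1 signal. Of the 504 doubles of positions 1 to 8 with positions 10 to 16, 492 were lower, and the medians by CRE position were -1.23 at 10, -1.55 at 11, -3.05 at 12, -2.89 at 13, -1.35 at 14, -0.64 at 15 and -0.44 at 16. The dimmest pairs thus held a change of the central CG of the CRE. Of the 63 doubles of position 9 with positions 10 to 16, all 63 were lower, with a median of -4.34, and 25 were below background on both arrays. The strongest fall with both arrays above background was T9A+A16C, 21.7-fold below the unmutated site (-3.49 and -3.50). The largest bound, at least 25.8-fold, was shared by members below background on both arrays, such as G8C+C12A, G8C+G13T and T9A+T14C.

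The doubles were then set against the sum of their single effects on the log2 scale, where 0 means that the changes add. With CREB1 alone, 26 of 891 member doubles lay above additivity and 74 below (limma, Benjamini-Hochberg), beside 9.23% and 17.7% of all 6480 doubles tested. Few of these departures came from doubles of positions 1 to 7 without position 8 or 9: of 441 doubles of positions 1 to 7 with 10 to 16, 8 were above and 3 below, and of 189 doubles within 1 to 7, 0 were called. The other calls lay in doubles that held position 8 or 9.

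Changes of T9 joined to a change of G10, or to G8C or G8T, lost less than their sum. All 9 doubles of T9 with G10 were above additivity, by 0.84 to 1.75. T9A+G10C gave -0.01 and -0.35, a fall of 1.12, whereas T9A alone fell by 1.64, and its departure was 1.75 (SE 0.112, adjusted p = 1.51e-05 by limma). All 6 doubles of G8C or G8T with T9 were also above additivity, by 0.31 to 0.83, with G8T+T9G the highest (adjusted p = 0.000365 by limma). G8A with T9 was not called in any of its 3 doubles. Of the 9 doubles of T9 with position 11, 1 was above additivity and 0 below, with departures from -0.56 to 0.44.

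Changes of T9 or its flank joined to changes from position 12 on lost more than their sum. Position 12 lies on the same side of the CRE centre as T9, and positions 13 to 16 lie on the other. Of the 36 doubles of T9 with positions 13 to 16, 35 were below additivity, with a median of -1.98, and of the 9 with position 12, 8 were below, with a median of -1.28. Of the 24 doubles of G8C or G8T with positions 13 to 16, 22 were below, with a median of -1.05, and all 6 with position 12 were below, with a median of -1.24. The 15 doubles of G8A with positions 12 to 16 held 0 calls, with departures from -0.32 to -0.11. G8T+T14C gave -2.61 on both arrays and departed by -1.74 (SE 0.111, adjusted p = 1.49e-05 by limma), although G8T alone fell by only 0.51. Doubles at background understate their loss, and 25 of the 45 such T9 doubles and 8 of the 30 doubles of G8C or G8T were below background on both arrays. At the bright end, at most 8.33% of a member's spots on an array were saturated, and the part of this in the departures was not tested.

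Keeping the palindrome did not remove the loss. T9A+A16T gave -3.22 and -3.30 and departed by -2.05 (SE 0.141). T9C+A16G gave -1.53 and -1.60 and departed by -1.27 (SE 0.1002). T9G+A16C gave -3.82 and -3.71, above background on 1 array, and departed by -2.18 (SE 0.126). All 3 were below additivity by limma (adjusted p = 1.99e-05, 3.72e-05 and 1.03e-05). Of the 441 doubles of positions 1 to 7 with 10 to 16, 8 were above additivity, and A7C+G10C was the highest. It gave 0.43 and 0.09, 0.61 above additivity (adjusted p = 0.00266 by limma). Its sequence holds a new CGTCA, a side of a CRE on the printed strand, from position 7. G5T+A6C and G4T+A7C also gained a side of a CRE, as CGTCA and TGACG, and departed by 0.13 and -0.04. Neither was called (adjusted p = 0.502 and 0.928 by limma), and the part of the new letters was not tested.

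The same departures were looked for in the other placements with CREB1 alone, as medians without a test. The departure of T9 with G10 was 1.28 in the outer forward placement, and it was 1.27, 2.09, 2.33, 0.58 and 0.67 in the middle forward, inner forward, outer reverse, middle reverse and inner reverse placements. The departure of T9 with positions 13 to 16 was -1.98 in the outer forward placement, and -1.83, -0.36, 0.49, -1.63 and -2.06 in the others in the same order. The departure of G8C or G8T with positions 12 to 16 was -1.13, and -1.23, -0.82, 0.05, -0.83 and -1.13 in the others. The outer reverse placement, where the last departures were near or above 0, also had the lowest unmutated CREB1 signal (-0.29 and -0.27), and its part in that difference was not tested.

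The last comparison set each member against the same variant 10 bases further in, in the middle forward placement. GABPα was far dimmer at the probe end. With GABPα alone, 94 of the 918 variants were above background on both arrays in the middle placement and 0 in the outer one. With CREB1 the counts were 202 and 15, and all 15 were among the 202. GABPα alone was lower in the outer placement for 198 members and higher for 0, beside 36.2% lower of all variants of the site. With CREB1 it was lower for 295 and higher for 0, beside 44.8% lower (both limma, Benjamini-Hochberg). Members above background only in the middle had to differ between the placements, so these calls are not counted as support. In the middle, 113 variants with GABPα alone and 212 with CREB1 were above background on either array. Some calls in each group were thus for variants at background in both placements.

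The size of that difference could be measured only for the 15. A1G gave -0.15 and -0.45 in the middle placement against -1.33 and -1.49 at the end, lower by 1.11 (SE 0.0466, adjusted p = 2.69e-05 by limma). G8A gave 0.10 and 0.09 in the middle against -1.44 and -1.42, lower by 1.52 (SE 0.0281, adjusted p = 2.89e-06 by limma). The unmutated site was lower at the end by 1.24 (SE 0.1004). The loss from A1G thus differed between the placements by 0.13 (95% interval -0.16 to 0.43) and that from G8A by -0.28 (95% interval -0.58 to 0.02), differences that were computed after the values were seen. For members visible in the middle and at background at the end the difference is a bound. The largest was for G8A+C12T with CREB1, where the middle was at least 6.13-fold brighter, and for G8A+G13C with GABPα alone, at least 3.94-fold. In the outer reverse placement, where the CRE lies at the probe end, 245 of the same variants were above background on both arrays with GABPα alone and 268 with CREB1.

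CREB1 did not share this dimming. With CREB1 alone 871 members were above background on both arrays at the outer end and 859 in the middle. The fit called 106 members higher at the end and 20 lower (limma, Benjamini-Hochberg), beside 9.83% and 3.1% of all variants, and 0 of the 27 singles. The largest difference was 0.64 for G4A+C12A (-2.79 and -2.89 at the end, -3.48 and -3.50 in the middle), and A7C+G10C was lower by 0.40. These calls depended on the processing: 0 were made in the authors' deposited table, 0 after another background correction, 45 with the replicate block, 46 without either array of GABPα alone, 76 and 61 without replicate 1 or 2 of CREB1, and 0 without either array of GABPα with CREB1. The fit shares 1 estimate of the spread over the 6 arrays.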

How the data were processed

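Fluorescence of GST-tagged protein was read in the Cy5 channel on 6 custom arrays. The deposited files of the scanner give linear spot intensity, which Agilent Feature Extraction 12.0.1.1 had, per the file headers, background-subtracted and detrended, with a surrogate value where the subtracted intensity was not significant. The authors' deposited value table holds the intensity per probe name: the median over spots of median spot signal minus median local background, matched within 0.01 for 100% of the members' values. The unmutated probe had 2 names, averaged here, and 48 spots.

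Control spots and outlier spots (2.26% to 4.55% per array) were left out. Processed intensity was taken to log2, the 75th percentile of the array, taken over spots of 1139 custom sequences above background on all 6 arrays, was subtracted, and the spots of a sequence were averaged. Per array, at least 15 spots of each member remained. The number of arrays limits the precision.

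Tests used limma 3.58.1 (lmFit, eBayes) in R 4.3.3 (with package data.table, version 1.17.8) and Benjamini-Hochberg adjustment at 0.05. The addition of CREB1 was fitted on the 4 GABPα arrays over 10812 sequences. Effects against the unmutated site, departures from additivity and differences between placements were fitted on all 6 arrays with a mean per group, as differences within an array. When tested on simulated data for the addition of CREB1 over 10812 sequences, 55% of changes of log2 size 1 and 75% of size 3 were recovered, with 6 false calls. The changes were placed in sequences drawn from all of these, with normal noise and no surrogate floor. The rates thus do not describe the members, which had surrogate values with GABPα alone. With 2 arrays a group no exact permutation test can pass the threshold.

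Members and lists were chosen with earlier results of these data known. Named members are the unmutated probe, the 27 singles, members that keep, move or remake a GGAA or GGAT core after a change in the core, the 3 doubles of positions 9 and 16 that keep the palindrome, and up to 6 called members or bounds of largest size per test and direction; any others were named after their values were seen. Motifs were read in bases 1 to 20 on both strands. A bound uses the lowest signal above background on each array. Intervals are the fit's 95% intervals.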

Additional observations from a re-analysis of the deposited data

How the results depend on the processing

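The number of members changed on adding CREB1 was 34. It was 0 in the authors' deposited table, 18 with no scaling, 19 with dim sequences left out, 67 after normexp, 670 with custom sequences alone, 689 with an intensity trend and 889 with the percentile over all spots; those with custom sequences alone, the trend and all spots held 46, 35 and 21 higher calls. Leaving out an array gave 0 to 34. Where an array is left out, the lone array of its group is assumed to vary like the others. The causes of these differences were not tested, except that fewer sequences or arrays enter some fits.

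The replicate number marks the slide shared by the GABPα arrays. With this replicate block 22 members changed on adding CREB1, and 45 differed between outer and middle placement with CREB1 alone, in place of 126. The counts of the other 5 tests kept within 1.5 times under the block. Deviations of same-numbered arrays correlated at -0.27 over 1637 sequences above background on the 4 GABPα arrays. With the crossed pairing as the block, added after that was seen, 27 members were called.

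With CREB1 alone, members differing between the placements numbered 0 in the authors' table and after normexp, 258 with a trend, and 0 to 76 when an array was left out. With GABPα alone they numbered 198, and 419 in the authors' table, 113 with dim sequences left out and 515 after normexp. With GABPα and CREB1 they numbered 295, and 532 in the authors' table and 549 after normexp. Doubles off additivity numbered 100, and 61 in the authors' table. Counts against the unmutated site stayed within 1.5 times of 671 and 918 under every alternative run, and with the percentile over all spots 5 of the 34 members changed on adding CREB1 turned negative (-0.07 to -0.42).

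Signal over background limited the GABPα comparisons: all 918 members were at background on both arrays of GABPα alone, and all but 15 on at least 1 array of the mixed reaction, so their differences are bounds or rest on the authors' table. That table is not scaled between arrays, and differences between reactions and slides remain in the values quoted from it. With CREB1 alone, the intervals of the singles at positions 1 to 7 reached from -0.40 to 0.29 on the log2 scale, and effects within that range could have been missed.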
